A study of Rattus norvegicus with 12 samples.

Results

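Messenger RNA of hypothalamic tissue containing the paraventricular nucleus of the hypothalamus (PVH) was compared between rats killed 1 h after acute corticosterone (1 h acute, 2 libraries) and adrenalectomised rats given a corticosterone supplement (supplemented ADX, 2 libraries). These 4 libraries, chosen by their titles, were part of a series of 12 libraries in 6 groups of 2, all from wild-type Wistar rats at postnatal week 12. The comparison covered 12856 genes of 17310 in the files, those that passed a filter on low counts; the other 4454 were not tested. Rats killed 3 h after acute corticosterone (3 h acute, 2 libraries) served as the later time point, and rats with a sham operation, rats 7 days after adrenalectomy (ADX) and rats given high corticosterone for 12 days entered the estimate of the spread between replicates and give levels for context. The labels gave neither the dose, the route, the meaning of the "(1)" in the acute titles, whether the acutely treated rats kept their adrenal glands, nor whether a library was 1 rat or a pool. The supplemented rats were given the hormone too, so the comparison set an acute exposure against a maintained one, and a difference in adrenal status cannot be told apart from it. The labels named no vehicle, and none of the 6 groups was named as given vehicle or handled alone. An effect of the handling or of a vehicle thus cannot be told apart from that of the hormone either.

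Corticosterone, the principal glucocorticoid in rats, binds the glucocorticoid receptor (encoded by Nr3c1) and the mineralocorticoid receptor (Nr3c2), which enter the nucleus and bind response elements in DNA, so that direct target genes can respond within the hour. In the PVH, corticotropin-releasing hormone neurons start the pituitary and adrenal response to stress, and glucocorticoids feed back on them. Immediate early genes such as Fos, Egr1 and the Nr4a family are switched on within minutes of neuronal activity or of other signals that reach the cell surface.

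The libraries held 32201860 and 17674159 fragments in 1 h acute and 36249006 and 31810257 in supplemented ADX; 17674159 was the lowest and 36249006 the highest total of the 12. The PVH factors Sim1 and Otp were detected, at 52.4 and 54.0 CPM and at 37.4 and 41.0 CPM in 1 h acute (CPM, fragment counts scaled to library size). In supplemented ADX they stood at 49.0 and 47.3 CPM and at 35.2 and 32.8 CPM. No other tissue was set beside these levels, so they do not show how exact the dissections were. The second 1 h acute library stood apart. It was the shallowest of the 12, and its mean level of 15 markers of the thalamus, which adjoins the dissected tissue, was 5.09 log2 CPM, against 5.83 in the first 1 h acute library and 6.14 and 6.13 in the supplemented ADX libraries. The ribosomal RNA gene Rn18s also differed, at 654 and 575 CPM in 1 h acute and 1187 and 1726 CPM in supplemented ADX. Results for called genes and several lists are therefore also given without the second 1 h acute library or with this thalamus score as covariate. Other results are given with all libraries unless stated.

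At 1 h, 6 of the 12856 genes differed from supplemented ADX (0.0467%), 5 higher (0.0389%) and 1 lower (0.00778%), by edgeR's quasi-likelihood test at a Benjamini-Hochberg adjusted p under 0.05. The genes that rose were Per1 and Per2 of the circadian clock, the poly(A) polymerase family gene Fam46a, the kinase gene Map3k13 and the zinc finger gene Zim1. The gene that fell was Hnrnpc, which encodes an RNA-binding protein. The changes were modest, between 1.33-fold and 1.71-fold higher and to 0.711 of the supplemented ADX level. All 6 had both 1 h acute libraries on the same side of both supplemented ADX libraries, as had 46.5% of all genes tested. Before adjustment, 1891 genes (14.7%) had p under 0.05, 1011 higher and 880 lower, and 34 genes had an adjusted p under 0.1. The share of 14.7% is the one to set beside each list count below at an unadjusted p under 0.05. Nothing in the labels tied the libraries to separate animals, so the p values reflect the spread between libraries alone, which may be technical, and a permutation of 2 against 2 libraries could not give a p below 0.333.

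The stretch of 250 bases before the transcription start of Per1, Per2 and Map3k13 is shown because Per1 carried the firmest change and the other 2 held a response motif there. The sequences are those of RefSeq on build GRCr8, read 5′ to 3′ along the gene's strand, and capitals mark a motif match. The windows lie at chr10:54304126-54304375 on the plus strand for Per1, at chr9:99496994-99497243 on the minus strand for Per2 and at chr11:92739664-92739913 on the minus strand for Map3k13.
Per1: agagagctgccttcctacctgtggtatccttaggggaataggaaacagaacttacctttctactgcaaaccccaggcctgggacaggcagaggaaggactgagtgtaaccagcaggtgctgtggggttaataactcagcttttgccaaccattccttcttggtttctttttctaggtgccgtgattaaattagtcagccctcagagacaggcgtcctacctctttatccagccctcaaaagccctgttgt
Per2: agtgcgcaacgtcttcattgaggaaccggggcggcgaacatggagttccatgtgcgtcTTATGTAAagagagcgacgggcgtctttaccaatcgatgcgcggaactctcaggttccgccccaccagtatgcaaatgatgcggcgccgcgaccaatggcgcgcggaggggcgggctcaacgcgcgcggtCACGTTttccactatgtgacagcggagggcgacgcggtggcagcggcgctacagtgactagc
Map3k13: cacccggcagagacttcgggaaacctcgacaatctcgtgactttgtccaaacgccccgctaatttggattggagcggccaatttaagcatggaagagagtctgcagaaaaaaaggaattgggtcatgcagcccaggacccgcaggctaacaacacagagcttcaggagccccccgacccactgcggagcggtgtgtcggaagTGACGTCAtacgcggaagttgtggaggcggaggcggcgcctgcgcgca
The letters were searched on both strands in the promoters of all 6 called genes (Fam46a under its RefSeq symbol Tent5a). No window of the 6 held the core of the glucocorticoid response element, ACANNNTGT, which 5.81% of 33469 rat promoters of this length held, nor its single arm TGTTCT (17.5%), the AP-1 site TGANTCA (6.34%) or the E-box CACGTG (5.59%). The Map3k13 window held the cAMP response element TGACGTCA (1.59% of promoters) starting 48 bases before the transcription start. The Per2 window held the E-box variant CACGTT (4.07%) starting 62 bases before it and the D-box TTATGTAA (0.828%) starting 192 bases before it, both of them clock motifs added to the search after the windows had been viewed. A match describes letters in this window, and response elements can lie outside it.

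The Period genes encode repressors of the circadian clock, and Per1 is also a direct glucocorticoid target in many tissues. The time of day of killing was not among the sample details used here. A difference in it between the groups cannot be told apart from the exposure. Per1 stood at 82.5 and 87.4 CPM in the 1 h acute libraries, against 48.7 and 50.5 CPM in supplemented ADX. It was 1.71-fold higher (log2 fold change 0.77 ± 0.08 SE, 95% interval 0.61 to 0.94, adjusted p = 0.00174 by edgeR). At 3 h it stood at 49.8 and 51.9 CPM, and the drop between 3 h and 1 h passed the test (-0.74 ± 0.08, adjusted p = 0.00309 by edgeR). The 3 h libraries thus overlapped those of supplemented ADX and lay far below those of 1 h. Among the 8 libraries of the other groups Per1 ranged between 40.2 and 84.9 CPM, and the high end was a library of 12-day high corticosterone.

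Per2 stood at 91.0 and 95.6 CPM in 1 h acute, against 71.4 and 68.8 CPM in supplemented ADX, and rose 1.33-fold (0.41 ± 0.05, adjusted p = 0.00588 by edgeR). None of the other 8 libraries exceeded 82.7 CPM, a 3 h acute library. The 3 h libraries, at 82.7 and 78.3 CPM, lay between the other 2 groups, and the difference between 3 h and 1 h did not pass the test (-0.21 ± 0.05, adjusted p = 0.178). Per3 did not pass with all libraries, at 95.2 and 105 CPM in 1 h acute and 81.7 and 87.6 CPM in supplemented ADX (0.24 ± 0.05, adjusted p = 0.121 by edgeR), and was called in 3 of 16 alternatives, by DESeq2 and without the first 1 h acute library among them. Of 19 clock genes tested, 2 were called, both higher, and 10 had a positive log2 fold change, with a median of 0.00, close to the -0.002 over all genes tested. The activator gene Npas2 had the lowest value of the list, at 55.5 and 46.7 CPM in 1 h acute and 70.7 and 59.98 CPM in supplemented ADX (-0.34 ± 0.12, adjusted p = 0.243 by edgeR). DESeq2 called 4 clock genes, with Per1, Per2 and Per3 higher and Npas2 lower. Over the alternatives the log2 fold change of Npas2 ran from -0.48 to -0.09.

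Fam46a, named Tent5a in RefSeq, belongs to a family of non-canonical poly(A) polymerases. It stood at 36.4 and 43.6 CPM in 1 h acute, against 26.5 and 26.3 CPM in supplemented ADX (0.59 ± 0.09, adjusted p = 0.0340 by edgeR). Map3k13 encodes a leucine zipper kinase upstream of the JNK pathway, and stood at 35.4 and 40.9 CPM in 1 h acute, against 28.6 and 28.03 CPM in supplemented ADX (0.42 ± 0.07, adjusted p = 0.0340). Zim1, a zinc finger gene that is imprinted in the mouse, stood at 48.8 and 56.3 CPM in 1 h acute, against 37.3 and 36.6 CPM in supplemented ADX (0.50 ± 0.08, adjusted p = 0.0340). In each of these genes both 1 h acute libraries exceeded supplemented ADX and all 8 libraries of the other groups. Those 8 reached at most 31.1 CPM for Fam46a, 32.5 CPM for Map3k13 and 43.3 CPM for Zim1. In each, too, the second 1 h acute library was the higher. The share of all genes tested with 1 h acute beyond every other library was not counted, here or for Per2 and Hnrnpc.

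Hnrnpc encodes a core protein of the particles that package nascent transcripts. It stood at 52.4 and 48.0 CPM in 1 h acute, against 66.5 and 75.4 CPM in supplemented ADX, and fell to 0.711 of that level (-0.49 ± 0.07, adjusted p = 0.0115 by edgeR). Both 1 h acute libraries lay below the other 8 libraries, which ranged between 55.4 and 69.6 CPM. Its deposited counts are not all whole, and RefSeq lists 6 Hnrnpc pseudogenes and 1 further Hnrnpc-like gene in the rat, so reads shared with such copies make its value uncertain. Of 29 splicing factor genes tested, Hnrnpc alone was called, and the median of the list was 0.00. The relative Hnrnpu stood at 562 and 539 CPM in 1 h acute and 501 and 528 CPM in supplemented ADX (0.10 ± 0.05, adjusted p = 0.354).

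**Figure D1:**
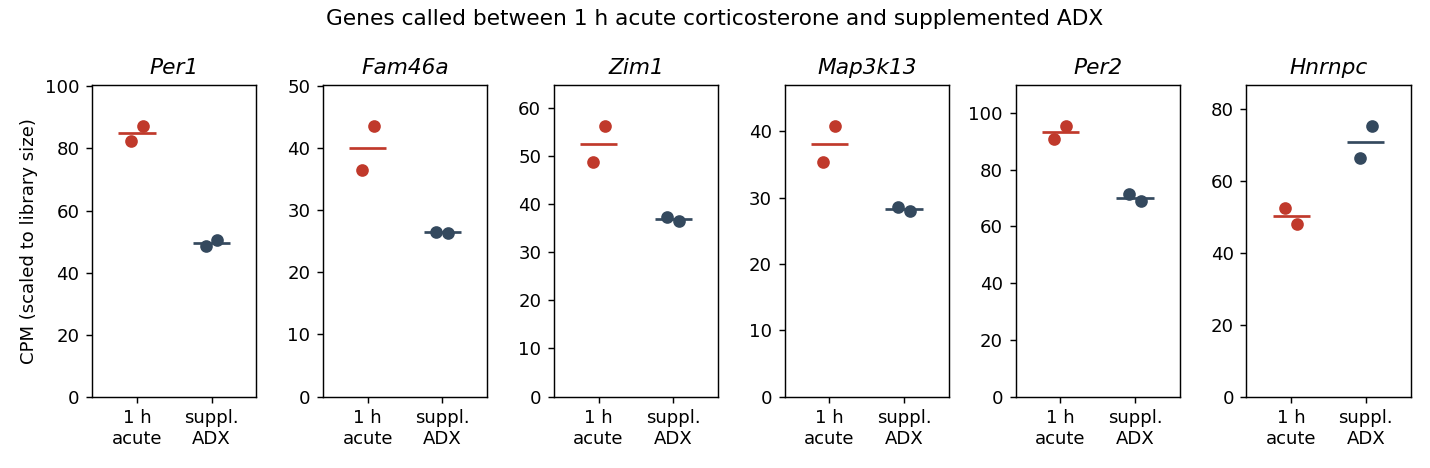
Levels of the 6 genes called between 1 h acute and supplemented ADX, in CPM on axes that start at 0, with each library as a point and each group's mean as a line. In every panel both libraries of one group lie beyond both of the other, from Per1 at 82.5 and 87.4 CPM in 1 h acute against 48.7 and 50.5 CPM in supplemented ADX to Hnrnpc, the one gene that was lower at 1 h.

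Without the second 1 h acute library Per1 kept its call (0.74, adjusted p = 0.0281), and it kept it in 15 of the 16 alternatives tried, over which its adjusted p ranged between 1.75e-14 and 0.119. The other 5 lost the call without that library. Their log2 fold changes were then 0.38 for Per2, 0.46 for Fam46a, 0.32 for Map3k13, 0.40 for Zim1 and -0.43 for Hnrnpc. With the thalamus score as a covariate, too, only Per1 was called (0.81, adjusted p = 0.0401), and the values were 0.35 for Per2, 0.44 for Fam46a, 0.30 for Map3k13, 0.30 for Zim1 and -0.43 for Hnrnpc. The direction of these 6 genes did not change in any alternative. Hnrnpc was called in 9 of the 16, Per2 in 8 and Zim1 in 7. Fam46a was called in 6 and Map3k13 in 5 of 15, since DESeq2 set no adjusted p for them. Over the alternatives the highest adjusted p was 0.495 for Per2, 0.546 for Hnrnpc and 0.930 for the other 3.

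**Figure D2:**
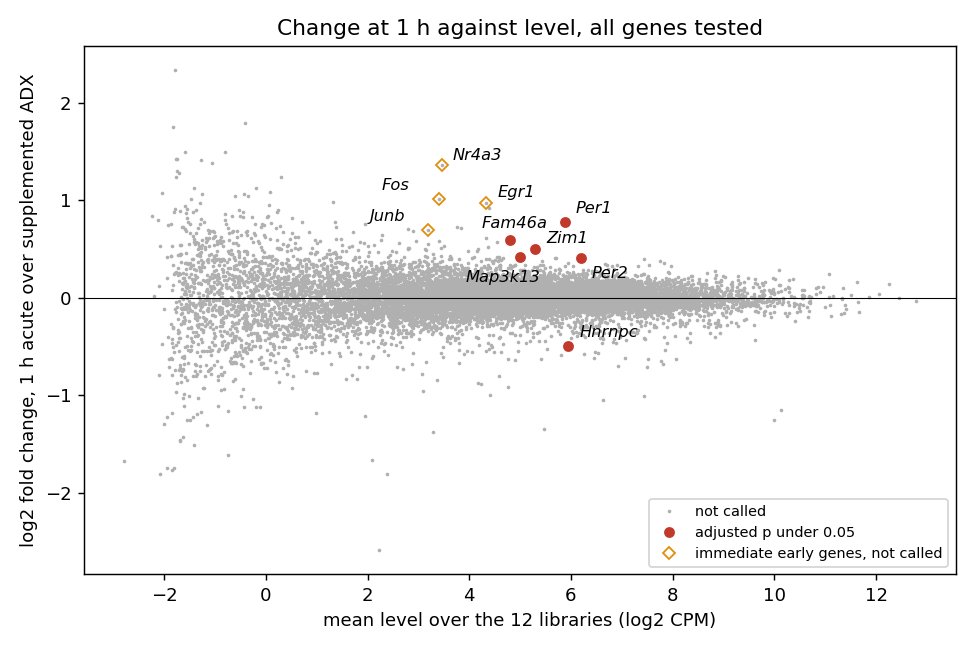
Log2 fold change of 1 h acute over supplemented ADX against the mean level over the 12 libraries (log2 CPM), one point per tested gene. The 6 called genes (red) lie at middle levels with values between -0.49 and 0.77, while Nr4a3, Fos, Egr1 and Junb (open diamonds) had values of 0.69 to 1.36 and were not called.

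Several immediate early genes had larger log2 fold changes than the called genes, with larger standard errors. Nr4a3, an orphan nuclear receptor gene, stood at 23.2 and 26.0 CPM in 1 h acute, against 9.11 and 9.98 CPM in supplemented ADX (1.36 ± 0.20, adjusted p = 0.0650 by edgeR). Fos, a subunit of the AP-1 factor, stood at 21.5 and 24.9 CPM in 1 h acute, against 10.6 and 12.4 CPM in supplemented ADX (1.01 ± 0.32, adjusted p = 0.251). Egr1, a zinc finger factor, stood at 39.4 and 45.6 CPM in 1 h acute, against 22.9 and 20.1 CPM in supplemented ADX (0.97 ± 0.22, adjusted p = 0.165). None of these passed the test, although in each both 1 h acute libraries lay well above both of supplemented ADX. The fit drew its spread from all 6 groups, and within the ADX group, for example, the Fos libraries stood at 12.3 and 5.35 CPM.

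Other early genes had smaller positive values, also without a call. Junb, another AP-1 subunit, stood at 13.5 CPM in both 1 h acute libraries, against 8.48 and 8.20 CPM in supplemented ADX (0.69 ± 0.12, adjusted p = 0.0650 by edgeR). Sik1, a kinase that restrains the CREB coactivators, stood at 32.7 and 37.8 CPM in 1 h acute, against 24.5 and 22.8 CPM in supplemented ADX (0.57 ± 0.11, adjusted p = 0.0983). Nr4a1 stood at 18.2 and 20.0 CPM in 1 h acute, against 13.4 and 13.0 CPM in supplemented ADX (0.53 ± 0.15, adjusted p = 0.177). The groups were apart in each of these. Fosb (0.98 ± 0.30, adjusted p = 0.198) and Fosl2 (0.68 ± 0.16, adjusted p = 0.128) had groups apart as well. Arc, a synaptic gene induced by activity, overlapped between the groups (0.21 ± 0.16, adjusted p = 0.578).

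Of 37 tested genes in the list of AP-1 and other immediate early genes, edgeR called none, 28 had a positive log2 fold change, and the median was 0.14, against -0.002 over all genes tested. At an unadjusted p under 0.05, 13 were higher and none lower, where 14.7% of all genes passed that level in either direction. The groups did not overlap in 23 of the 37, against 46.5% of all genes. When the fit used only the 6 libraries of the acute and supplemented ADX groups, 6 were called, namely Fos, Junb, Egr1, Nr4a1, Nr4a3 and Sik1. In the fit of the 4 compared libraries and by limma-trend on log2(FPKM + 1) the calls were Fos, Egr1 and Nr4a3, and DESeq2 called none but set no adjusted p for 31 of them. Without the second 1 h acute library the median was 0.14 with none called, and with the thalamus score it was 0.17 with none called. Without the first 1 h acute library 5 were called, all higher, namely Fosl2, Junb, Egr2, Nr4a3 and Sik1, where 624 of all genes were called.

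**Figure D3:**
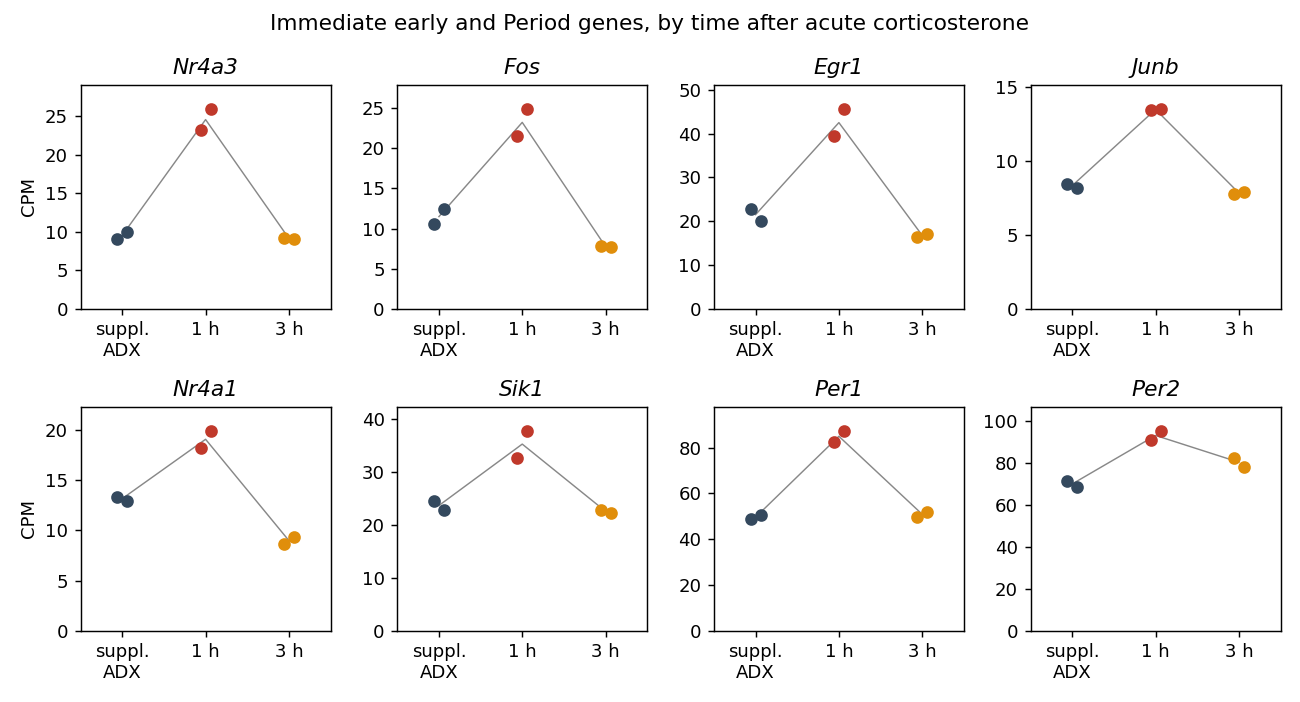
CPM of 6 immediate early genes and of Per1 and Per2 in supplemented ADX, 1 h acute and 3 h acute, with each library as a point and a line through the group means. Every gene was highest at 1 h, and at 3 h all but Per2 stood near or below supplemented ADX, as in Fos at 7.86 and 7.66 CPM.

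At 3 h the early genes lay on either side of supplemented ADX, and none of those named here was called against it. Fos stood at 7.86 and 7.66 CPM (-0.56 ± 0.37, adjusted p = 0.586 by edgeR) and Egr1 at 16.5 and 17.05 CPM (-0.36 ± 0.24, adjusted p = 0.584). Both genes lay below both supplemented ADX libraries. Nr4a3, at 9.20 and 9.08 CPM, was about level with those libraries (-0.06 ± 0.23, adjusted p = 0.937). Fosl2 lay above supplemented ADX, at 9.64 and 9.13 CPM in 3 h acute against 7.33 and 6.38 CPM in supplemented ADX (0.45 ± 0.17, adjusted p = 0.305 by edgeR). Fosb lay above it too, at 2.94 and 4.10 CPM in 3 h acute against 2.60 and 2.38 CPM in supplemented ADX (0.50 ± 0.32, adjusted p = 0.550). The difference of 3 h acute from 1 h acute was not called for Fos (-1.57 ± 0.36, adjusted p = 0.233), Egr1 (-1.33 ± 0.23, adjusted p = 0.174), Nr4a3 (-1.42 ± 0.21, adjusted p = 0.103), Nr4a1 (-1.08 ± 0.16, adjusted p = 0.0657) or Junb (-0.78 ± 0.13, adjusted p = 0.0657). That contrast shares the 1 h libraries with the contrast against supplemented ADX, so the 2 are not independent. In all, it called 3 genes (0.0233%), 2 lower at 3 h (0.0156%), Per1 among them, and 1 higher (0.00778%), Hbb, where 38.9% of all genes had groups that did not overlap.

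Of 19 tested genes that curb MAP kinase signalling, edgeR called none. DESeq2 called none either but set no adjusted p for 13 of them, and limma-trend called none of 17. The list median was 0.05, against 0.12 without the second 1 h acute library and 0.10 without the first. At an unadjusted p under 0.05, 7 were higher and 3 lower. Spry4, a Sprouty inhibitor of receptor tyrosine kinase signals, stood at 31.2 and 30.7 CPM in 1 h acute, against 23.6 and 23.2 CPM in supplemented ADX (0.40 ± 0.08, adjusted p = 0.0650 by edgeR), and was called in 3 of 15 alternatives. Dusp1, a MAP kinase phosphatase gene and a known glucocorticoid target, overlapped between the groups, at 23.4 and 15.5 CPM in 1 h acute and 18.7 and 24.4 CPM in supplemented ADX (-0.11 ± 0.19, adjusted p = 0.840). Among 13 Kruppel-like factor genes edgeR called none, with 3 higher and 3 lower at an unadjusted p under 0.05. The median of these factor genes was 0.12, against 0.15 without the second 1 h acute library and 0.05 without the first. Klf5 stood at 10.2 and 10.1 CPM in 1 h acute, against 6.51 and 7.01 CPM in supplemented ADX (0.58 ± 0.12, adjusted p = 0.0915). Klf6, which DESeq2 called lower, stood at 68.2 and 53.4 CPM in 1 h acute, against 74.1 and 86.4 CPM in supplemented ADX (-0.38 ± 0.11, adjusted p = 0.195 by edgeR).

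In the list of glucocorticoid-induced genes, which held Per1 but not Per2, only Per1 was called at 1 h. Of 52 tested, 1 was called, 22 had a positive and 30 a negative log2 fold change, and the median was -0.03. At an unadjusted p under 0.05, 5 were higher and 4 lower, where 14.7% of all genes passed that level in either direction. The lowest value was that of Edn1, the endothelin-1 gene, named here after its values were seen, at 1.70 and 0.943 CPM in 1 h acute against 2.49 and 2.32 CPM in supplemented ADX (-0.78 ± 0.28, adjusted p = 0.243 by edgeR). The list median was -0.007 without the second 1 h acute library, 0.013 without the first and -0.001 with the thalamus score. Sgk1, the serum and glucocorticoid-regulated kinase gene, stood at 31.7 and 32.5 CPM in 1 h acute, against 26.9 and 26.6 CPM in supplemented ADX (0.26 ± 0.13, adjusted p = 0.397 by edgeR). Tsc22d3, which encodes the leucine zipper protein GILZ, stood at 61.4 and 65.5 CPM in 1 h acute, against 54.5 and 58.9 CPM in supplemented ADX (0.16 ± 0.08, adjusted p = 0.397). Both had groups apart and intervals that reached below 0, from -0.04 to 0.56 for Sgk1 and from -0.02 to 0.34 for Tsc22d3.

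Fkbp5, the receptor co-chaperone gene, stood at 27.7 and 25.7 CPM in 1 h acute, against 29.4 and 29.2 CPM in supplemented ADX (-0.13 ± 0.09, adjusted p = 0.535). Its interval of -0.32 to 0.06 held no rise of the size seen in Per1. Klf9 stood at 77.3 and 76.7 CPM in 1 h acute and at 74.0 and 74.3 CPM in supplemented ADX (0.05 ± 0.04, interval -0.04 to 0.15). Ddit4, an inhibitor of mTOR signalling, stood at 42.8 and 54.4 CPM in 1 h acute and 37.9 and 41.5 CPM in supplemented ADX (0.28 ± 0.12, adjusted p = 0.303), and Zbtb16 at 16.2 and 19.2 CPM in 1 h acute and 14.9 and 12.9 CPM in supplemented ADX (0.33 ± 0.18, adjusted p = 0.423). Nfkbia, the inhibitor of NF-kappaB, overlapped at 13.1 and 13.4 CPM in 1 h acute and 13.3 and 13.2 CPM in supplemented ADX. The small GTPase gene Rhob stood at 339 and 281 CPM in 1 h acute, against 375 and 386 CPM in supplemented ADX (-0.29 ± 0.08, adjusted p = 0.166). DESeq2 called Rhob lower, and over the alternatives its log2 fold change ran from -0.44 to -0.06.

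**Figure D4:**
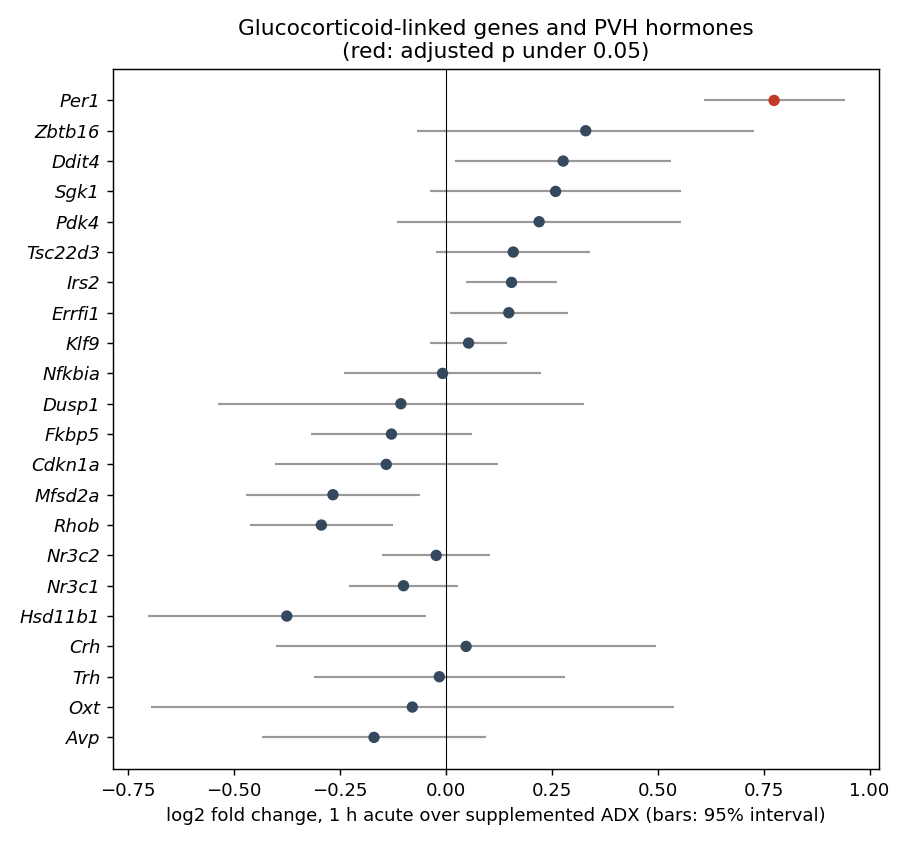
Log2 fold change of 1 h acute over supplemented ADX with its 95% interval for glucocorticoid-induced genes, corticosteroid receptors and handling genes, and PVH hormones. The glucocorticoid-induced genes drawn are 15 of the 52 tested. Of the genes drawn, Per1 (red) at 0.77 was the one called, and the others lay between -0.37 and 0.33.

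Neither corticosteroid receptor gene differed detectably. Nr3c1 stood at 207 and 190 CPM in 1 h acute and 205 and 221 CPM in supplemented ADX (-0.10 ± 0.06, interval -0.23 to 0.03), and Nr3c2 at 46.1 and 48.7 CPM in 1 h acute and 46.2 and 49.9 CPM in supplemented ADX (-0.02 ± 0.06, interval -0.15 to 0.11). Hsd11b1, whose enzyme regenerates active glucocorticoid, stood at 9.72 and 7.10 CPM in 1 h acute and 11.3 and 11.1 CPM in supplemented ADX (-0.37 ± 0.15, adjusted p = 0.289). Of 19 receptor and steroid handling genes edgeR called none, with 2 higher and 1 lower at an unadjusted p under 0.05, and limma-trend called none. DESeq2 called 1 of them, higher.

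The hormone genes of the PVH were not called. Crh, the corticotropin-releasing hormone gene, stood at 18.6 and 15.2 CPM in 1 h acute and 14.3 and 18.9 CPM in supplemented ADX, so the groups overlapped (0.05 ± 0.20, interval -0.40 to 0.50). Avp, vasopressin, stood at 134 and 124 CPM in 1 h acute and 149 and 142 CPM in supplemented ADX (-0.17 ± 0.12, adjusted p = 0.547). Oxt, oxytocin, stood at 313 and 277 CPM in 1 h acute and 305 and 318 CPM in supplemented ADX (-0.08 ± 0.26), and Trh, thyrotropin-releasing hormone, at 75.8 and 88.3 CPM in 1 h acute and 81.4 and 83.6 CPM in supplemented ADX (-0.01 ± 0.13). Hcrt, the orexin gene of the lateral hypothalamus, stood at 16.1 and 26.6 CPM in 1 h acute and 12.9 and 12.2 CPM in supplemented ADX (0.73 ± 0.35, adjusted p = 0.397), and turned to -0.12 with the thalamus score as a covariate. In bulk tissue, fewer cells of a type and less RNA per cell cannot be told apart.

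Markers of the thalamus had lower levels and regional genes of the hypothalamus mostly higher levels in 1 h acute. With all libraries edgeR and limma-trend called none of them, nor did DESeq2 among those it gave an adjusted p. Every one of the 15 thalamus markers lay below 0 on the log2 scale, with a median of -0.61, and 8 had an unadjusted p under 0.05. Their summed level was 2251 and 1495 CPM in 1 h acute, against 2537 and 2643 CPM in supplemented ADX. Tcf7l2, a defining factor of the thalamus, stood at 180 and 104 CPM in 1 h acute and 220 and 232 CPM in supplemented ADX (-0.65 ± 0.24, adjusted p = 0.297 by edgeR). The second 1 h acute library was the lowest. The median of the list was -0.30 without it and -1.11 without the first 1 h acute library. The vesicular glutamate transporter gene Slc17a6, used by neurons of both regions, stood at 397 and 309 CPM in 1 h acute and 454 and 482 CPM in supplemented ADX (-0.40 ± 0.11, adjusted p = 0.194).

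Of 29 transcription factor genes of the PVH and hypothalamus, 22 had a positive log2 fold change (median 0.20), with 11 higher and 2 lower at an unadjusted p under 0.05. Pou3f2, which PVH neurons need to form in the mouse, stood at 96.8 and 106 CPM in 1 h acute and 88.5 and 87.4 CPM in supplemented ADX (0.20 ± 0.05, adjusted p = 0.131 by edgeR). Of 40 neuropeptide and hormone receptor genes, 33 were positive (median 0.11), with 7 higher and none lower at an unadjusted p under 0.05. Crhr2, a receptor of the corticotropin-releasing hormone family, stood at 5.15 and 4.38 CPM in 1 h acute and 3.45 and 3.07 CPM in supplemented ADX (0.57 ± 0.18, adjusted p = 0.190). Crhbp, which binds and sequesters that hormone, stood at 4.72 and 4.49 CPM in 1 h acute and 3.39 and 2.88 CPM in supplemented ADX (0.56 ± 0.17, adjusted p = 0.187). Without the first 1 h acute library the median was 0.22 for these factors and 0.15 for these receptors. Without the second it was 0.16 for the factors and 0.07 for the receptors. When the thalamus score was a covariate, 21 of the 29 factors were positive (median 0.11) and 20 of the 40 receptors (median 0.00).

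**Figure D5:**
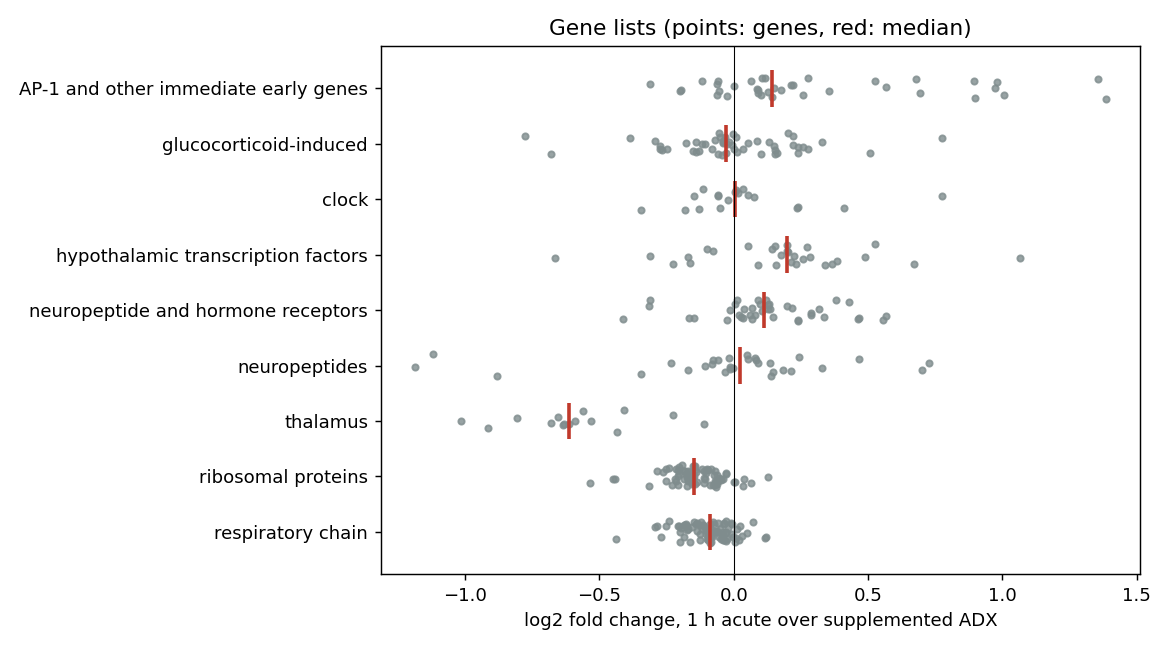
Log2 fold changes of 1 h acute over supplemented ADX in 9 gene lists, one point per tested gene, with the list's median as a red line. The thalamus list lies wholly below 0 (median -0.61), and the ribosomal protein list mostly so (median -0.15).

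Genes of the translation and respiratory machinery had slightly lower levels in 1 h acute as lists. With all libraries none was called by edgeR, by limma-trend or, among those it gave an adjusted p, by DESeq2. Of 79 ribosomal protein genes, 73 had a negative log2 fold change (median -0.15), and 31 were lower and none higher at an unadjusted p under 0.05. Rpl23 stood at 42.4 and 40.6 CPM in 1 h acute and 51.2 and 50.2 CPM in supplemented ADX (-0.29 ± 0.07, adjusted p = 0.142 by edgeR). Of 84 respiratory chain genes, 74 were negative (median -0.09), and 18 were lower and none higher at that level. Atp5i, a subunit gene of ATP synthase, stood at 18.8 and 18.1 CPM in 1 h acute and 22.8 and 22.3 CPM in supplemented ADX (-0.29 ± 0.07, adjusted p = 0.126). Without the first 1 h acute library the ribosomal median was -0.15 and the respiratory one -0.13. Without the second 1 h acute library the ribosomal median was -0.14 and the respiratory one -0.06, and with the thalamus score they were -0.10 and -0.05. Ribosomal protein genes have many processed copies in the genome, so their counts depend on how reads of such copies were assigned. The difference in Rn18s has the same direction, and its part in the result was not tested.

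Among chaperone genes, Dnajb1, a heat shock cochaperone, stood at 59.9 and 67.5 CPM in 1 h acute and 46.6 and 49.4 CPM in supplemented ADX (0.40 ± 0.09, adjusted p = 0.126 by edgeR), and was called in the fit of 6 libraries and by DESeq2. Of 29 chaperone genes edgeR called none, with 5 higher and 3 lower at an unadjusted p under 0.05. Cholesterol genes had mostly positive values, with 16 of 21 positive (median 0.04), 3 higher at an unadjusted p under 0.05 and none called by edgeR. DESeq2 called 1, higher. The cholesterol list median was 0.01 without the second 1 h acute library, 0.08 without the first and -0.015 with the thalamus score.

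EdgeR called none of the markers of other cell types with all libraries. Of 13 meninges and fibroblast markers 8 were positive (median 0.21, 1 higher at an unadjusted p under 0.05). Among them Col1a1 stood at 27.4 and 30.4 CPM in 1 h acute and 22.9 and 21.5 CPM in supplemented ADX (0.37 ± 0.12, adjusted p = 0.197 by edgeR). Of 12 ependyma and tanycyte markers 6 were positive and 6 negative. Their member Foxj1 stood at 26.1 and 35.7 CPM in 1 h acute and 23.5 and 22.0 CPM in supplemented ADX (0.42 ± 0.12, adjusted p = 0.176 by edgeR). Of 20 oligodendrocyte markers 18 were negative (median -0.10, 1 at an unadjusted p under 0.05), but their summed level overlapped, at 8160 and 6891 CPM in 1 h acute and 7468 and 9130 CPM in supplemented ADX. Of 17 microglia and macrophage markers 13 were negative (median -0.11, 1 at an unadjusted p under 0.05), with P2ry12 at 12.9 and 12.1 CPM in 1 h acute and 15.6 and 15.1 CPM in supplemented ADX (-0.29 ± 0.10, adjusted p = 0.204). The medians of 20 astrocyte markers (-0.02, 1 lower at an unadjusted p under 0.05) and 26 endothelial markers (-0.02, 1 higher and 5 lower) lay near 0, although Kdr, an endothelial receptor, stood at 44.9 and 40.3 CPM in 1 h acute and 51.9 and 54.2 CPM in supplemented ADX (-0.31 ± 0.07, adjusted p = 0.126) and was called by DESeq2. Summed blood markers were 34.7 and 28.6 CPM in 1 h acute and 40.8 and 34.7 CPM in supplemented ADX. The choroid plexus marker Ttr stood at or below 0.222 CPM in these 4 libraries, and 7 of 9 pituitary markers were too low to be tested.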

How the data were processed

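Per the labels, libraries came from Trizol-extracted total RNA of chilled dissections, made with an Illumina TruSeq kit of a kind that does not mark strand, so antisense overlaps cannot be told apart. Per the submitters' processing notes, CASAVA 1.8.2, TopHat2 2.1.1, Cufflinks 2.2.1 and build rn6 were used; which tool did what, and the annotation, is not given in the sources used here. The deposited raw fragments are estimated counts per gene that the authors left unscaled, per the file headers; rounding moved the 0.751% of values that were fractions (233 genes) by at most 0.5. The deposited FPKM values, which the authors scaled to length and library size within one Cuffdiff run for the supplemented ADX, 1 h and 3 h libraries, served only as an alternative.

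The tests used edgeR 4.0.16 in R 4.3.3: filterByExpr on 6 groups (minimum count 10, minimum total 15), TMM scaling, and 1 robust quasi-likelihood fit of all 12 libraries with a coefficient per group, tested 2-sided with Benjamini-Hochberg adjustment over all 12856 genes. Its residual degrees of freedom were 6, the median prior ones 8.90, and the common biological variation (as a coefficient) 0.0470. The median SE of a log2 fold change was 0.42 under 1 CPM, 0.16 at 1 to 10 CPM, 0.07 at 10 to 100 CPM and 0.05 above 100 CPM. The script was tested on simulated counts. Alternatives were DESeq2 1.42.0, limma-trend (limma 3.58.1) on log2(FPKM + 1) or log2(FPKM + 0.1), RLE size factors, other filters, fewer samples, a replicate block, the thalamus score (mean log2 CPM of 15 markers) as a covariate, and leaving out each library. Called genes with a symbol, groups apart and an average level not under 1 log2 CPM were named (up to 15 a direction), with the 4 lowest p values of every list and a set of known hormone-response genes; the text gives part of these, some being left out here, and a few regional markers as tissue checks. Members and lists were chosen with earlier results of these data known. Lists were described by counts and medians, with no test of a list.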

Additional observations from a re-analysis of the deposited data

Results flagged for a closer look

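Per1 and Hbb differed between 3 h acute and 1 h acute by a direct test of the 2 times. Per1 was lower at 3 h (log2 fold change -0.737 ± 0.0794, adjusted p = 0.00309 by edgeR), as described above. Hbb, a hemoglobin gene, was higher (0.915 ± 0.135, adjusted p = 0.0413), at 16.8 and 20.3 CPM in 3 h acute against 10.2 and 9.26 CPM in 1 h acute. The summed blood markers were 56.1 and 69.2 CPM in 3 h acute and 34.7 and 28.6 CPM in 1 h acute. These sums include Hbb itself, so they are not independent of its call, and the part of blood in the difference was not tested.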

How the results depend on the processing

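The 6 calls at 1 h were also made with RLE size factors and with the stricter filter. The count was 16 with no filter on low counts, 81 by DESeq2 (39 higher, 42 lower, 4 of the 6 among them), 18 in the fit of 6 libraries (5 of the 6), 4 in the fit of 4 libraries (Per1 with Fos, Egr1 and Nr4a3), and 6, 5 and 1 by limma-trend with a pseudocount of 1, of 0.1 and with no FPKM filter, of which Per1 was shared in the first 2 and none in the last. It was 1 (Per1) with the thalamus score. Leaving out 1 library gave 1 to 624 calls: 624 without 1 h acute replicate 1, 1 without replicate 2, 2 without supplemented ADX replicate 1 and 1 without replicate 2, each including Per1. For 3 h acute minus 1 h acute the 3 calls became 5 with no filter, 24 by DESeq2, 10, 10 and 1 by limma-trend, 10 and 9 in the fits of 6 and 4 libraries, and 0 to 35 without 1 library (35 without 1 h acute replicate 1, 6 without 3 h acute replicate 1, and 0 without 3 h acute replicate 2, where 863 genes had an unadjusted p under 0.05).

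Replicate numbers were not shown to pair the libraries: the deviations of same-numbered libraries of 1 h acute and supplemented ADX correlated at -0.255 over 10497 genes. With the replicate block 3 genes were called at 1 h (Per1, Per2, Hnrnpc) and 4 between 3 h and 1 h. A crossed pairing, chosen after seeing the data, gave 158 (104 higher, 54 lower).

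Of 1629 tested values of 105 genes under the alternatives, 1494 kept direction and side of the threshold, 76 gained a call, 44 lost one and 15 changed direction, all of them in genes not called. With the thalamus score the changes of direction were Dusp1 (0.215), Hcrt (-0.124), Nfkbia (0.0740), Nr3c1 (0.0164) and Oxt (0.381). Without 1 library the log2 fold changes ran from -0.149 to 0.257 for Crh, from -0.466 to 0.124 for Dusp1, from -0.0214 to 0.0137 for Nfkbia, from -0.081 to 0.0317 for Nr3c2, from -0.171 to 0.0067 for Oxt and from -0.12 to 0.0979 for Trh. DESeq2 set no adjusted p for 7645 of the genes tested. The cause of these differences was not tested. Standard errors were largest for genes at low levels, and the shallowest library was 1 h acute replicate 2. Whether depth had a part in these differences was not tested.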

Other observations

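Genes of neuronal signalling gave no call at 1 h by edgeR with all libraries. Gabre, the epsilon subunit of the GABA-A receptor, stood at 24.7 and 33.2 CPM in 1 h acute, against 18.7 and 18.6 CPM in supplemented ADX (log2 fold change 0.61 ± 0.16, adjusted p = 0.174 by edgeR). Grik1, a kainate receptor subunit, stood at 47.7 and 41.0 CPM in 1 h acute, against 54.1 and 52.8 CPM in supplemented ADX (-0.26 ± 0.07, adjusted p = 0.164). Of 38 glutamate and GABA receptor subunit genes, 5 were higher and 6 lower at an unadjusted p under 0.05, and of 38 potassium channel genes 7 were higher and 4 lower. The groups did not overlap in 23 and 19 of them, where 46.5% of all genes had such groups. Of all genes, 14.7% had an unadjusted p under 0.05. The median of the receptor subunit list was 0.01, against 0.04 without the second 1 h acute library and -0.04 without the first. That of the channel list was -0.02, against 0.02 without the second and -0.04 without the first. The channel gene Kcnd2 stood at 195 and 178 CPM in 1 h acute, against 213 and 216 CPM in supplemented ADX (-0.20 ± 0.05, adjusted p = 0.149).

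Pde10a, a phosphodiesterase gene best known from the striatum, stood at 66.6 and 59.9 CPM in 1 h acute, against 78.5 and 78.4 CPM in supplemented ADX (-0.30 ± 0.06, adjusted p = 0.0650), and DESeq2 called it lower. It stood at 84.9 and 77.9 CPM at 3 h. Of 11 striatum and septum markers 7 were positive and 4 negative (median 0.10). Rgs9, another of them, was higher, at 23.6 and 26.7 CPM in 1 h acute against 21.6 and 19.1 CPM in supplemented ADX (0.29 ± 0.08, adjusted p = 0.176 by edgeR). Of 19 general neuron markers edgeR called none with all libraries, and 7 were lower at an unadjusted p under 0.05. Their median was -0.07, against -0.03 without the second 1 h acute library and -0.115 without the first. Among the 7 was the synaptic gene Snap25, at 1115 and 1021 CPM in 1 h acute and 1151 and 1238 CPM in supplemented ADX (-0.16 ± 0.05, adjusted p = 0.187). Nefl, a neurofilament gene, stood at 503 and 439 CPM in 1 h acute, against 551 and 572 CPM in supplemented ADX (-0.25 ± 0.08, adjusted p = 0.208). DESeq2 called Nefl lower, and over the alternatives its log2 fold change ran from -0.35 to -0.04. In each of these named genes the second 1 h acute library lay farther from supplemented ADX than the first.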
